A study of Sus scrofa with 3 samples.

Results

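The 8 enzymes described here remove reactive oxygen species or reduce reactive carbonyls: GPX1, GPX3, GPX4, SOD1, SOD2, CAT, PRDX6 and CBR1. They were chosen by name, with their signals on these arrays already known, and GPX3 and CBR1 were singled out as the members that changed. All 8 were found among the 6765 symbols that the platform's gene table gives to the array, on 9 probe sets that carry a member as their only symbol. A further probe set is listed under both CBR1 and the neighbouring locus LOC100622246, so its signal cannot be credited to either gene.

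Fetuses of Wuzhishan miniature pigs gave the tissue, the last deciduous molar germ of the mandible with its dental lamina left on, at E40, E50 and E60. The labels call the germ cap stage at E40, bell stage at E50 with the secondary dental lamina starting, and secretory stage at E60, which the methods of the study call late bell. The germs of a litter were pooled and each pool was read on 1 Affymetrix Porcine Genome Array, so there is no spread between replicates, no p-value is given, and every fold compares 2 arrays. The labels give no treatment and no altered allele, and the fetal age is the only labelled difference between the groups.

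Superoxide dismutases turn superoxide into hydrogen peroxide. Catalase, the peroxiredoxins and the glutathione peroxidases then remove the peroxide. Glutathione peroxidases use glutathione as the reductant, and GPX1, GPX3 and GPX4 carry selenocysteine in the active site. CBR1 is a short-chain dehydrogenase that uses NADPH to reduce quinones, prostaglandins and other carbonyl compounds. In a tooth germ, ameloblasts and odontoblasts secrete large amounts of matrix protein, and the folding of secreted proteins is itself a source of hydrogen peroxide.

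GPX3, the secreted plasma glutathione peroxidase, was 9.13-fold higher at E60 than at E50, and CBR1 was 12.1-fold higher at E50 than at E40. The other 6 enzymes stayed within 1.73-fold on all 7 of their probe sets in every pair of stages. By the brightest probe set of each gene, 1 of 8 enzymes (CBR1, higher) passed 2-fold between E50 and E40, where 9.8% of all genes did so, 2.5% higher and 7.3% lower. It was 1 of 8 (GPX3, higher) between E60 and E50, against 5.59% of all genes, 3.99% higher and 1.6% lower. It was 2 of 8 (both higher) between E60 and E40, against 10.7%, 4.07% higher and 6.61% lower. Over all probe sets, with or without a symbol, 13.9% were called in the first pair (1.99% higher, 11.9% lower), 6.39% in the second (4.93% higher, 1.45% lower) and 13.3% in the third (3.5% higher, 9.76% lower). The share of higher among the called probe sets was 14.3%, 77.2% and 26.4% in these pairs as deposited, 44.6%, 68.9% and 52.6% with the arrays at equal medians, and 42.5%, 59.5% and 47.5% after quantile normalization. GPX3 and CBR1 were picked for these same differences, so the counts describe the choice and nothing is read from them.

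A MAS 5.0 signal is the summary that Affymetrix software makes from the probe pairs of a probe set, and all signals below are on this linear scale. The 25th percentile of each array served as a floor, to which dimmer signals were raised. It stood at 29.3 for E40, 17.2 for E50 and 21.8 for E60. Where 1 of the signals was raised, the fold can only be larger and is given as "at least". All 10 member probe sets lay above the floor on all 3 arrays, so each fold given for them was measured on both sides. A probe set was called where its signals differed by over 2-fold, and a log2 fold between 2 stages is the later over the earlier one. Levels of different genes are not compared, since each probe set has its own brightness.

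**Figure D1:**
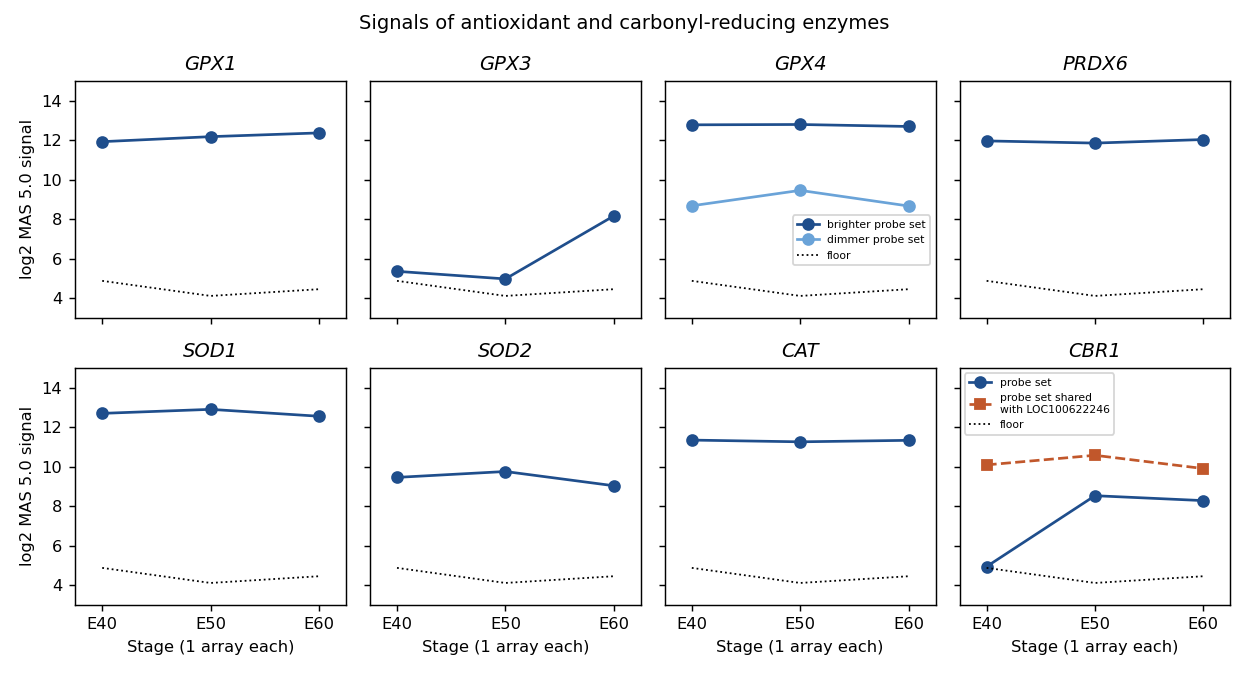
Log2 MAS 5.0 signal (vertical axis) of every probe set of the 8 enzymes at E40, E50 and E60 (horizontal axis, 1 array per stage, no error bars since there are no replicates). The dotted line is the floor of each array, and the dashed orange line is the probe set that CBR1 shares with LOC100622246. GPX3 steps up to 286 at E60 and CBR1 to 369.65 at E50, while the probe sets of the other enzymes vary by at most 1.73-fold.

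GPX3 had a signal of 40.9 at E40, 31.3 at E50 and 286 at E60. The E60 array alone is high, and the signals at E40 and E50 lie near the floor, at the 29.8th and the 32.8th percentile of their arrays. GPX3 was thus 6.998-fold higher at E60 than at E40, and its log2 fold between E50 and E40 was -0.38. The sign of this last value turned with the scaling of the arrays, to 0.003 with equal medians and to 0.32 after quantile normalization, so no direction is given for that step.

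Among the 17019 probe sets measured above both floors, the E60 over E50 fold of GPX3 was the 17th largest. When the probe sets were split by mean signal into 4 classes of equal size, GPX3 lay in the second dimmest class, in which 11.9% were called higher between E60 and E50, a larger share than in the other classes. CBR1 lay in the next brighter class, in which 2.67% were called higher between E50 and E40. With the floor set at the 50th percentile of each array, GPX3 was at least 2.29-fold higher at E60 than at E50 and the fold of at least 1.75 between E60 and E40 was no longer called.

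GPX1, the widely expressed cytosolic glutathione peroxidase, stood at 3892 at E40, 4642 at E50 and 5295 at E60. Its signal was 1.19-fold higher at E50 than at E40 and 1.14-fold higher at E60 than at E50. These steps run the same way, but even the whole span of 1.36-fold is short of the 2-fold limit. In the brightest class of probe sets, to which GPX1 belongs, 52.6% of the probe sets spanned a smaller ratio over the 3 stages.

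GPX4, the glutathione peroxidase that reduces lipid peroxides within membranes, had 2 probe sets. The brighter one was among the steadiest signals, at 7034 at E40, 7116 at E50 and 6641 at E60, a span of 1.07-fold. Only 4.47% of the probe sets in the brightest class spanned less. The dimmer one stood at 409, 703 and 406 in the same order, 1.72-fold higher at E50 than at E40 and 1.73-fold lower at E60 than at E50. Both probe sets thus differ over the first step by 0.77 on the log2 scale, and 26.8% of the 1596 genes with several measured probe sets had a gap at least as wide. In the second brightest class, which holds the dimmer probe set, 69.2% of the probe sets spanned less over the stages than it did.

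PRDX6, a peroxiredoxin that also acts on oxidised phospholipids, stood at 3999 at E40, 3704 at E50 and 4195 at E60. CAT, the catalase of peroxisomes, stood at 2609, 2454 and 2587 on the same arrays. PRDX6 spanned 1.13-fold over the stages. For CAT, with a span of 1.06-fold, 3.55% of the probe sets in the brightest class varied less. The sign of the log2 fold of CAT, which was -0.09 between E50 and E40 and 0.08 between E60 and E50, turned under scaling to equal medians.

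The superoxide dismutases both had their brightest signal at E50. Their dimmest was at E60 as deposited, but with equal medians the log2 fold of SOD1 between E60 and E40 turned to 0.16, against -0.15 as deposited, and that of SOD2 was -0.11, against -0.42. SOD1, the copper and zinc enzyme of the cytosol, stood at 6669 at E40, 7681 at E50 and 6029 at E60. SOD2, the manganese enzyme of the mitochondrial matrix, stood at 703, 865 and 525 in the same order. SOD2 was 1.65-fold lower at E60 than at E50, a log2 fold of -0.72, and SOD1 was 1.27-fold lower. SOD2 was the 1 enzyme that a threshold of 1.5-fold added between E60 and E50, and neither dismutase passed 2-fold. In the brightest class, which holds both, 79.8% of the probe sets spanned a smaller ratio than SOD2 and 39.5% a smaller ratio than SOD1.

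CBR1 had a signal of 30.6 at E40, 369.65 at E50 and 311 at E60 on the only probe set that names it alone. The E40 array alone is low, and this signal lies barely above the floor, at the 25.8th percentile of its array. CBR1 was 12.1-fold higher at E50 than at E40, the 6th largest fold among the 16866 probe sets measured above both floors, and 10.2-fold higher at E60 than at E40. The log2 fold of E60 over E50 was -0.25, within the 2-fold limit. With the floor at the 50th percentile, CBR1 was at least 2.26-fold higher at E50 than at E40, and the bound of 1.90-fold between E60 and E40 was not called.

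The probe set shared by CBR1 and LOC100622246 did not follow this course. It stood at 1091 at E40, 1529 at E50 and 959 at E60, so it was 1.40-fold higher at E50 than at E40 and 1.14-fold lower at E60 than at E40. The RefSeq gene table of the pig places LOC100622246 next to CBR1 and gives it CBR3 as another name, beside a separate gene with the symbol CBR3. Between E50 and E40 both probe sets were 3.11 apart on the log2 scale, while the median gap between probe sets of 1 gene was 0.43, and 13 of 1596 genes with several measured probe sets had a gap as wide. Between E60 and E40 the gap was 3.53, a width that 3 of 1596 genes reached. A separate probe set with the single symbol CBR3 stood at 59.1 at E40, 68.0 at E50 and 62.3 at E60.

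Which probes in the sets of CBR1 and LOC100622246 match which transcript was not tested, as probe sequences were not used here. The increase of CBR1 therefore rests on 1 probe set and 1 low signal at E40. The increase of GPX3 likewise rests on 1 probe set.

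**Figure D2:**
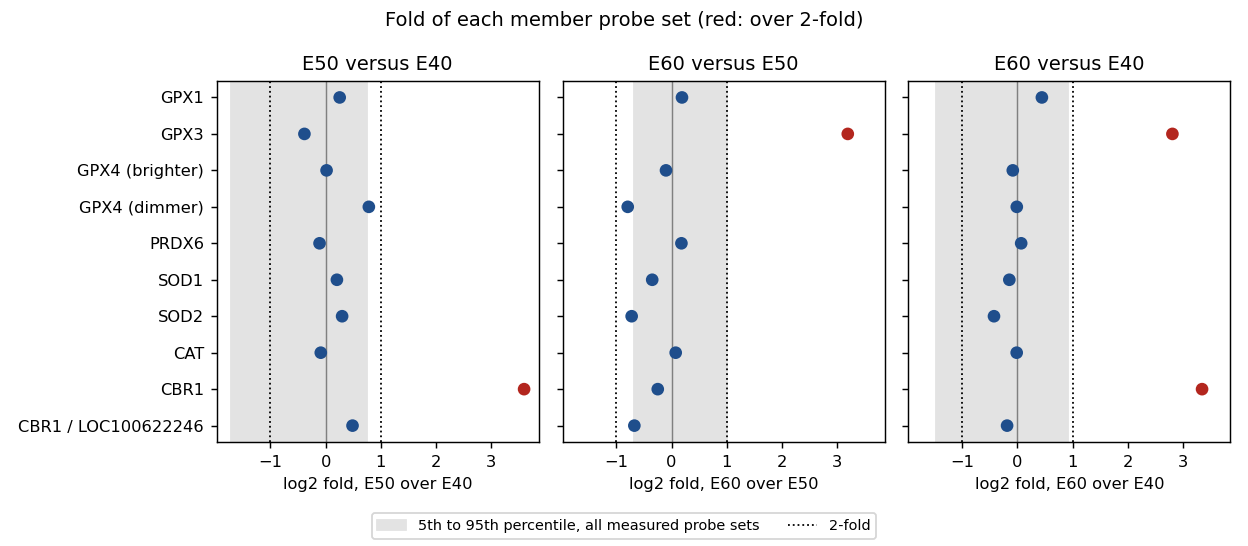
Log2 fold (horizontal axis) of each member probe set (rows) in the 3 pairs of stages, with probe sets over 2-fold in red. The grey band spans the 5th to the 95th percentile of all probe sets measured above both floors and the dotted lines mark 2-fold. CBR1 at 3.59 between E50 and E40 and GPX3 at 3.19 between E60 and E50 lie far to the right of the band, whereas the probe set shared by CBR1 and LOC100622246 is at 0.49 between E50 and E40. Between E60 and E50, SOD2 (-0.72) and the dimmer GPX4 probe set (-0.79) lie just left of the band, which starts at -0.68. That GPX4 probe set is also just right of the band between E50 and E40, at 0.78 against an upper end of 0.75.

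As a group, the 8 enzymes had a median log2 fold of 0.11 between E50 and E40, -0.01 between E60 and E50 and 0.03 between E60 and E40. The medians over all measured genes were 0.06, -0.04 and 0.0006 in the same order. Scaling the arrays to equal medians moved the enzymes to 0.50, -0.09 and 0.34, and all genes to 0.44, -0.12 and 0.31. With that scaling 8 of 8 enzymes had a log2 fold above 0 in the first pair, where 5 of 8 did as deposited.

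The genes whose 2 steps were nearest to those of GPX3 were PRR15, MT3, LOX, BEND6 and ELMO1. Nearness was the distance between the log2 steps from E40 to E50 and from E50 to E60, over 7806 probe sets with 1 symbol and all 3 signals above the floor. PRR15 was closest, at a distance of 0.19, with signals of 36.5 at E40, 29.0 at E50 and 300.5 at E60. MT3, a metallothionein that binds zinc and copper, followed at 0.69 with 97.3, 84.6 and 487, 5.76-fold higher at E60 than at E50. LOX, the lysyl oxidase that crosslinks collagen, was at 0.73 with 482, 237 and 1694 on the brighter of its 2 probe sets.

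SERPINA1, the gene of alpha-1-antitrypsin, was the gene nearest to CBR1 at a distance of 0.28, with 253 at E40, 2519.9 at E50 and 2156 at E60. It was followed by SATB1, a chromatin organiser, at 0.92, and TRH, a neuropeptide precursor, at 0.95. HAPLN1, a link protein of hyaluronan, was at 1.08 and DDX58, a sensor of viral RNA, at 1.18. SATB1 came in on 1 of its 4 probe sets, at 31.8, 325 and 506, which is not its brightest. The brightest stood at 393, 1983 and 4020 and was 2.03-fold higher at E60 than at E50, unlike CBR1. SERPINA1, TRH and DDX58 peaked at E50, as CBR1 did, and DDX58 stood at 78.0, 571 and 251. The distances rest on 2 steps over 3 arrays, and the likeness is a description.

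**Figure D3:**
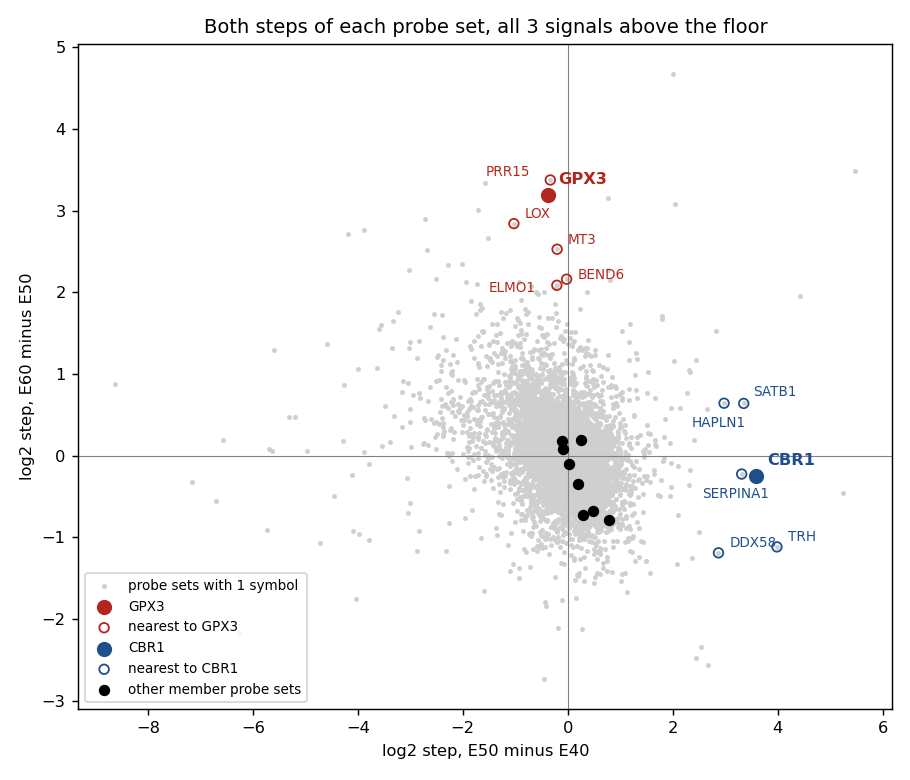
Log2 step from E40 to E50 (horizontal axis) against the step from E50 to E60 (vertical axis) for probe sets with 1 symbol and 3 signals above the floor (grey), GPX3 and its 5 nearest genes (red), CBR1 and its 5 nearest genes (blue), and the other member probe sets (black). GPX3 is high on the vertical axis only, at 3.19, and CBR1 on the horizontal axis only, at 3.59. The other member probe sets lie within the 2-fold limit on both axes.

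Other genes of the same pathways were examined in 9 lists, which hold 149 genes on the array beside the 8 enzymes. Between E50 and E40, 5 of the 149 were higher and 9 lower, which is 9.40% called against 9.8% of all genes. Between E60 and E50, 9 were higher and 3 lower, or 8.05% against 5.59%. Between E60 and E40, 8 were higher and 6 lower, or 9.40% against 10.7%. The lists were written with earlier results of these arrays known, and their counts are on the deposited scale unless a scaling is named. Scaling to the housekeeping genes left every list count as deposited between E50 and E40 and between E60 and E50. Between E60 and E40 it changed counts of the carbonyl, selenoprotein and NRF2 lists. The shares of all genes to set beside each list below are 2.5% higher and 7.3% lower between E50 and E40. They are 3.99% and 1.6% between E60 and E50, and 4.07% and 6.61% between E60 and E40. No such share per gene is given for the other scalings, so nothing is read from the list counts under them.

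Among 18 other genes of the glutathione system, which feeds the glutathione peroxidases, GCLM and GSTA1 were the genes called as deposited. Between E50 and E40 that is 1 higher and 1 lower, where equal medians gave 3 and 1. GCLM, the modifier subunit of the enzyme that starts glutathione synthesis, was 2.05-fold higher at E50 than at E40 (204 against 99.3), while its dimmer probe set was under the floor. GSTA1, a glutathione transferase, was under the floor at E50 and was at least 3.47-fold lower at E50 than at E40, and at least 2.21-fold higher at E60 than at E50. GSTA4, the brightest gene of the list, stood at 4432 at E40, 4151 at E50 and 3089 at E60. GPX7, an endoplasmic reticulum peroxidase of the same family, stood at 1382 at E40, 1599 at E50 and 2149 at E60 and was not called. GPX2 stood at 56.8, 54.5 and 36.5, and GPX5 and GPX6 were under the floor on all 3 arrays.

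None of 22 genes of the thioredoxin and peroxiredoxin system was called in any pair, though scaling to equal medians called 1 higher between E50 and E40. PRDX2, a peroxiredoxin of the cytosol, stood at 8269 at E40, 9559 at E50 and 8478 at E60, and TXN, thioredoxin itself, at 13302, 12451 and 11877. None of 12 genes of peroxisome biogenesis and function was called in any pair or under any of the 3 scalings tried. The brightest of them was SCP2, a lipid carrier, at 3542, 4812 and 5426. None of 5 genes of superoxide and copper handling was called either, though equal medians called 1 higher between E50 and E40. SOD3, the extracellular superoxide dismutase, was under the floor on all arrays, and the copper chaperone ATOX1 stood at 2970, 3923 and 4631.

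The 31 other genes of carbonyl reduction and aldehyde removal had 2 higher and 2 lower between E50 and E40. DHRS7, of the same short-chain dehydrogenase family as CBR1, was 2.83-fold higher at E50 than at E40 (835 against 295), and ALDH2, the mitochondrial aldehyde dehydrogenase, was 2.55-fold higher (4330 against 1697). ALDH2 was 2.37-fold lower again at E60 than at E50, whereas CBR1 and DHRS7 were not called in that pair, each 1.19-fold lower. ALDH1A1, a retinaldehyde dehydrogenase, was 7.37-fold lower at E50 than at E40 (109 against 800.5). ALDH1L1, a folate enzyme, was 2.15-fold lower on dim signals (27.8 against 59.7). Its other probe set stood at 2.5 at E40, 5.6 at E50 and 22.1 at E60, above the floor only at E60. Of the list, 4 were higher and 1 lower with equal medians, and 2 and 1 after quantile normalization. Between E60 and E40, 1 was higher and 3 lower, with ALDH7A1 (2.03-fold) beside ALDH1A1 and ALDH1L1, but 2 higher and 1 lower with equal medians and 1 and 1 after quantile normalization. The dimmer probe set of ALDH7A1 differed, 1.14-fold higher at E60 than at E40 (216 against 189). The brightest gene, the esterase ESD, stood at 4808 at E40, 5281 at E50 and 5799 at E60. NQO1, a quinone reductase whose substrates overlap with those of CBR1, stood at 868.5 at E40, 1219.5 at E50 and 1091 at E60.

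Among 18 genes of selenoproteins and their synthesis, 3 were lower at E50 than at E40, or 1 lower and 1 higher with equal medians or quantile normalization, and 2 were higher at E60 than at E50. SELENOP, the plasma protein that carries selenium to tissues, was 2.31-fold lower at E50 than at E40 (1143 against 2636) and stood at 1800 at E60. LRP8, a receptor that takes SELENOP up, was 2.13-fold lower at E50 than at E40 (174 against 369). SELENOI, an enzyme of phospholipid synthesis, was under the floor at E50 and at least 2.82-fold lower. SELENOM, a selenoprotein of the endoplasmic reticulum, was 2.44-fold higher at E60 than at E50 (819 against 335), and DIO2, which activates thyroid hormone, was 4.15-fold higher (90.0 against 21.7). Of the selenocysteine enzymes among the members, GPX1 and GPX4 were not called in either pair, while GPX3 was 9.13-fold higher at E60 than at E50. The part of selenium supply was not tested. SEPHS2, which makes the selenium donor, stood at 1068 at E40, 1392 at E50 and 1449 at E60, and SELENOF, the brightest of the list, at 3607, 4338 and 7143.

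NRF2 is the transcription factor that induces many antioxidant genes, CBR1 among them in human cells. Of 13 genes of its regulators and targets on the array, EPHX1, the microsomal epoxide hydrolase, was 2.04-fold higher at E50 than at E40 (884 against 433). It was the 1 gene of the list higher in that pair, where 3 were with equal medians and 2 after quantile normalization. Each gene was placed in a single list, so any NRF2 targets kept in the other lists, and CBR1 itself, are not among these 13. BLVRA, a biliverdin reductase, was 2.40-fold lower at E60 than at E50 (345 against 828). HMOX1, the inducible haem oxygenase, stood at 207 at E40, 182 at E50 and 249 at E60, and the ferritin chain FTH1 at 16819, 17906 and 16553.

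Of 16 genes of NADPH oxidases and other oxidant sources, 4 (25%) were higher at E60 than at E50, against 3.99% of all genes. At E50, 3 were lower than at E40 (18.75%, against 7.3% of all genes). These counts were 2 and 0 after quantile normalization, 4 and 1 with equal medians, and 4 and 3 with scaling to the housekeeping genes. LOX releases hydrogen peroxide as it oxidises lysine, and it was 7.16-fold higher at E60 than at E50 (1694 against 237). SMOX, the spermine oxidase, was 2.86-fold higher (1537 against 537), and 3 of its 4 probe sets were called higher in this pair. NCF1, an NADPH oxidase subunit, was 2.39-fold higher (64.2 against 26.9) on dim signals, and NOS2, whose E50 signal was under the floor, at least 2.17-fold. The genes lower at E50 than at E40 were LOX (2.04-fold), NOS2 (at least 2.80-fold) and the endothelial synthase NOS3 (2.255-fold). RAC1, a GTPase that activates the oxidase, was the brightest gene, at 3949, 4311 and 3518. The median log2 fold of this list between E60 and E50 was 0.51, against -0.04 over all genes.

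Among 14 genes that repair or limit oxidative damage, MT3 and UCP2 were called higher. UCP2, a carrier of the inner mitochondrial membrane, stood at 30.2 at E40, 105 at E50 and 341 at E60 on 1 probe set. It was thus 3.46-fold higher at E50 than at E40 and 3.26-fold higher at E60 than at E50. Its E40 signal lies barely above the floor, at the 25.5th percentile of the array. PARK7, which protects against oxidative stress, stood at 7256, 9742 and 8532.

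**Figure D4:**
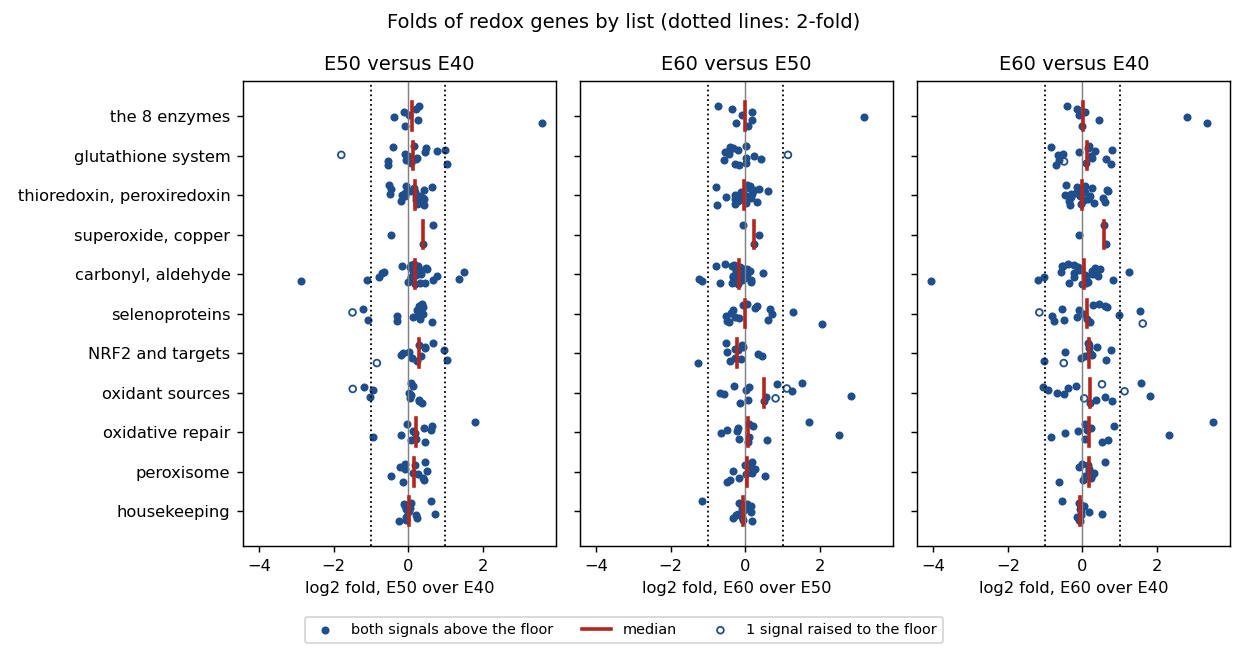
Log2 fold (horizontal axis) of each gene of the 8 enzymes, the 9 other redox lists and the housekeeping genes (rows) in the 3 pairs of stages, 1 point per gene, with open circles where 1 signal was raised to the floor. The red bar is the median of a list and the dotted lines mark 2-fold. A bar is missing where a signal of a gene, once raised to the floor, lies above its other signal. This holds for selenoproteins and oxidant sources between E50 and E40 and for the glutathione system between E60 and E50, among others. The thioredoxin and peroxisome rows stay inside the dotted lines, and the row of oxidant sources has its median at 0.51 between E60 and E50.

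Markers of several cell types differed over the same stages, and fewer cells of a type cannot be told apart from less RNA per cell in pooled tissue. AMBN, an enamel matrix gene, stood at 59.8 at E40, 2675 at E50 and 29942 at E60. For DSPP, of dentin, the brightest probe set gave 3.6, 80.3 and 4195, so both markers rose over the stages by these probe sets. Another DSPP probe set gave 18.1, 17.9 and 592, with no rise from E40 to E50, and the remaining one 1.7, 29.8 and 2289. All DSPP signals at E40 were under the floor. MSX1, also a tooth marker, did not rise over both steps. Its brighter probe set was 2.115-fold lower at E50 than at E40 (737 against 1559) and 1.65-fold higher at E60 than at E50, at 1214. Its dimmer probe set gave 27.8, 12.4 and 36.3, above the floor only at E60. The summed signal of 6 enamel organ markers was 4509 at E40, 9708 at E50 and 63974 at E60, with AMELX and ENAM under the floor at E40 and KLK4 at E50 and E60. CDH1 made up 4286 of the sum at E40, 4566 at E50 and 4765 at E60. For 9 odontoblast and mesenchyme markers the sums were 13356, 10117.5 and 22056, with DSPP under the floor at E40 and DMP1 at E40 and E50. For 19 skeletal muscle markers they were 45891, 1169.5 and 4111, of which MYL1 made up 7116, 481 and 3266, and 8 of the 19 were under the floor at E60. For 9 markers of keratinised epithelium they were 19203, 6756 and 6411.

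Between E50 and E40, where CBR1 was higher, 18 of 19 muscle and 5 of 9 keratinised epithelium markers were lower. Of 6 enamel organ markers, 3 were higher, AMBN by 44.7-fold and AMELX by at least 75.8-fold, and 1 was lower. Of 9 odontoblast and mesenchyme markers, 2 were higher and 4 lower, and 3 of 9 endothelial markers were lower. Between E60 and E50, where GPX3 was higher, 4 of 6 enamel organ and 4 of 9 odontoblast and mesenchyme markers were higher. Of 19 muscle markers, 3 were higher and 1 lower in that pair. Red cells are rich in SOD1, CAT and PRDX2. Erythroid markers summed to 2508, 2105 and 2774 over 6 genes, of which HBB made up 2038, 1759 and 2341. None of them was called between E50 and E40 or between E60 and E40, and 1 (AHSP) was higher between E60 and E50. The sums at E40, E50 and E60 were 1693, 1327 and 2028 for 11 macrophage and neutrophil markers, and 3393, 1961 and 2899.6 for 9 endothelial markers. They were 686, 3431 and 5325 for 6 cartilage markers, and 1019, 1053 and 1043 for 5 nerve and Schwann markers. S100B made up 398, 850 and 876 of the last sum, and 1 of these 5 was higher and 1 lower between E50 and E40. HAPLN1 made up most of the cartilage sum. The part of any cell type in the signals of GPX3 and CBR1 was not tested.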

How the data were processed

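RNA of 1 litter pool per stage was hybridised to 1 array each. The authors computed MAS 5.0 signals, scaled each array and deposited log2 values, which were used as they are. The mean signal without the brightest and dimmest 2% was 500.1 on each array. The table has 24123 probe sets, and 23999 were analysed once 124 controls of the array were dropped. The platform table gives 10069 probe sets 1 symbol, 198 several and 13732 none, and 9961 of the first matched the RefSeq gene table, which changed 0 symbols. The brightest probe set of a gene, by mean log2 signal over the stages, stood for it, but the search for the nearest genes took every probe set. Detection calls were not used here, and the floor replaced them. The number of arrays limits the precision, and the calling step was tested on simulated data. That test put changes larger than the threshold into bright signals with little noise. It therefore says nothing on the dim signals of CBR1 at E40 or of GPX3 at E40 and E50.

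Members and lists were chosen with earlier results of these data known. Named genes are all member probe sets, the called genes of each list (at most 4 per pair by size of fold), its brightest gene, the 5 genes nearest to GPX3 and CBR1, and tissue markers. GPX2, GPX5, GPX6, GPX7, SOD3, CBR3, PRDX2, NQO1, SEPHS2 and HMOX1 were added after their values were seen. Another 10 settings were tried, and 1 was added after the data were seen. Python 3.11.15, pandas 2.3.3 and numpy 2.4.6 were used.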

Additional observations from a re-analysis of the deposited data

How the results depend on the processing

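Some calls of GPX3 and CBR1 were lost under a higher floor, those of CBR1 also with the shared probe set, and none under the 3 scalings. Over 7 of the settings (every floor and scaling but the 50th percentile floor, and both probe set choices), CBR1 was 12.03 to 16.5-fold higher at E50 than at E40 and 10.2 to 13.7-fold higher at E60 than at E40. GPX3 was 7.56 to 9.42-fold higher at E60 than at E50 and 6.998 to 9.44-fold higher at E60 than at E40. With a floor at the 50th percentile, 0 enzymes were called between E60 and E40. A threshold of 1.5-fold called 2 between E60 and E50. When CBR1 was represented by the probe set shared with LOC100622246, a choice made after the data were seen, 0 enzymes were called between E50 and E40 and 1 between E60 and E40, where the log2 fold of CBR1 turned to -0.19. Of 191 member folds recomputed without that added choice, 186 stayed within 1.5-fold of their value. Most of them could not have moved further. All member probe sets lie above the floor, so no floor or a common floor left every member fold as it was. Scaling to equal medians or to the housekeeping genes shifts all folds of a pair alike, by at most 0.39 on the log2 scale, under 1.5-fold. The ranges above thus vary with the scalings alone, and the count is no measure of robustness. The cause of the lost calls was not tested.

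The counts over all probe sets moved more, and are given as higher and lower for E50 versus E40, E60 versus E50 and E60 versus E40. They were 477 and 2862, 1184 and 349, and 840 and 2343. Without a floor they were 1555 and 5011, 3245 and 1664, and 2172 and 4177. With the floor at the 50th percentile they were 262 and 902, 330 and 104, and 469 and 880. With equal medians they were 1455 and 1808 for the first pair and 1628 and 1467 for the last. After quantile normalization they were 1209 and 1636, 745 and 508, and 1477 and 1631. With scaling to the housekeeping genes they were 469 and 2887, 1316 and 305, and 908 and 2193. A 1.5-fold threshold gave 1590 and 4987, 3093 and 1459, and 2151 and 4564, and a 3-fold threshold 126 and 1453, 306 and 71, and 277 and 1009. A common floor gave 2206 lower in the first pair and 807 higher in the second, within 1.5-fold of the counts above. No paired analysis was possible because each stage has 1 array, and leaving out a replicate was not possible either.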
